A study of Mus musculus with 4 samples.

Results

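The genes described here carry out DNA replication and the step from G1 into S phase. They were chosen by name, from a list of 29 symbols, and each was read from the row of the expression table that names that gene and no other. Of the 29 genes, 28 had such a row, out of 30142 named genes in all. Mcm7, a subunit of the replicative helicase, was the exception, because its row also names 2 microRNA genes, and it is not analysed here. Every one of the 28 had a single row, so no choice between rows was needed.

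The cells were 4T1, a metastatic mouse mammary carcinoma line of the triple-negative kind, which lacks hormone receptors and HER2. RNA from 4 samples was hybridised to whole-transcript arrays, 1 array each. Of these, 2 came from cells with a scramble control (NC) and 2 from cells with a short hairpin against MCT-1 (shMCT-1), and the titles number both pairs as biological replicates 1 and 2. The labels speak of shMCT-1 clones kept for 2 weeks in 0.5 µg/ml puromycin, and they do not say whether a pair is 1 clone or several or what the control cells received. The values are log2 expression levels, so a difference of 1 is a 2-fold change.

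In G1, the origin recognition complex, Cdc6 and Cdt1 load the MCM helicase onto DNA, which licenses origins for a single firing. Cyclin E with Cdk2 and the kinase Dbf4-Cdc7 then turn the loaded helicase into an active one by adding Cdc45, GINS and Mcm10, and polymerases alpha, delta and epsilon copy the strands with the sliding clamp PCNA. Transcription of most of these genes is driven by E2F factors, which retinoblastoma-family proteins hold in check until cyclin-dependent kinases release them, so their messages peak together around the G1/S border. In tumour lines such as 4T1 they are widely read as markers of proliferation. On arrays of unsorted cells, a larger share of cells in S phase and more message per cell cannot be told apart.

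The array labels were first set against the targeted gene. Mcts1, which encodes MCT-1, was at 7.86 and 8.05 on the NC arrays and at 7.81 and 7.89 on the shMCT-1 arrays, a difference of -0.10 (SE 0.12, adjusted p = 0.945, limma). Its close copy Mcts2 was at 5.81, 6.61, 6.61 and 6.96 in the same order and Denr, the partner of MCT-1, at 8.58, 9.04, 8.61 and 9.16. A lower level of Mcts1 in shMCT-1 was not detected, so shMCT-1 below means the arrays labelled so. The titles, sources and genotypes of the samples give the groups used here, but the description of each of the 4, the NC samples included, names an shMCT of its own number. This doubt about the labels bears on every difference between groups. Epithelial markers stood at levels of 11.12 or more on all arrays, among them Epcam at 12.36 to 12.69 and Krt18 at 16.43 to 16.73. Krt14, a basal keratin of that list, was at 12.92 and 12.76 in NC and at 11.12 and 11.20 in shMCT-1 (-1.68, SE 0.12, adjusted p = 0.669, limma), a larger difference than that of any of the 28 genes. In contrast, 3 lymphocyte, 3 fibroblast and 4 endothelial markers had levels of 2.80 to 3.61, 3.20 to 3.93 and 3.27 to 4.24. NC replicate 1 stood apart in interferon-stimulated and stress genes: Usp18, an interferon-induced protease, was at 12.30 there, at 6.91 on the other NC array and at 7.33 and 5.72 in shMCT-1, and Ddit3, a stress transcription factor, at 10.39 against 6.78, 6.65 and 6.34. Of 4 macrophage markers, Adgre1 and Itgam were at 3.49 or less on every array, while Cd68 was at 10.15 on NC replicate 1 and at 8.26 to 9.00 on the others and Csf1r at 6.07 against 4.47 to 5.27. Because of this array, the counts and medians over the list are also given without it.

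The replication and G1/S genes mostly had lower levels in replicate 1 than in replicate 2, and many had higher levels in shMCT-1 than in NC. With replicate 1 set against replicate 2 over both groups, 25 of 28 genes had the lower mean in replicate 1 (22 of 28 after a further quantile normalization), with a median log2 difference of -0.26. With shMCT-1 set against NC, 20 of 28 had the higher mean in shMCT-1 (19 of 28 after that normalization), with a median of 0.19, but without NC replicate 1 the split was 14 higher and 14 lower and the median 0.01. Without shMCT-1 replicate 2 it was 15 higher and 13 lower, with a median of 0.03. No single gene passed in either comparison after adjustment over all 65956 rows with limma, a linear model that pools the spread across rows. The share of all rows that passed was 0% for both. Adjusted p-values of the 28 genes ran from 0.882 to 0.995 for the groups and from 0.523 to 0.996 for the replicate numbers, and with 2 arrays against 2 the smallest p an exact two-sided permutation test can give is 0.333.

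**Figure D1:**
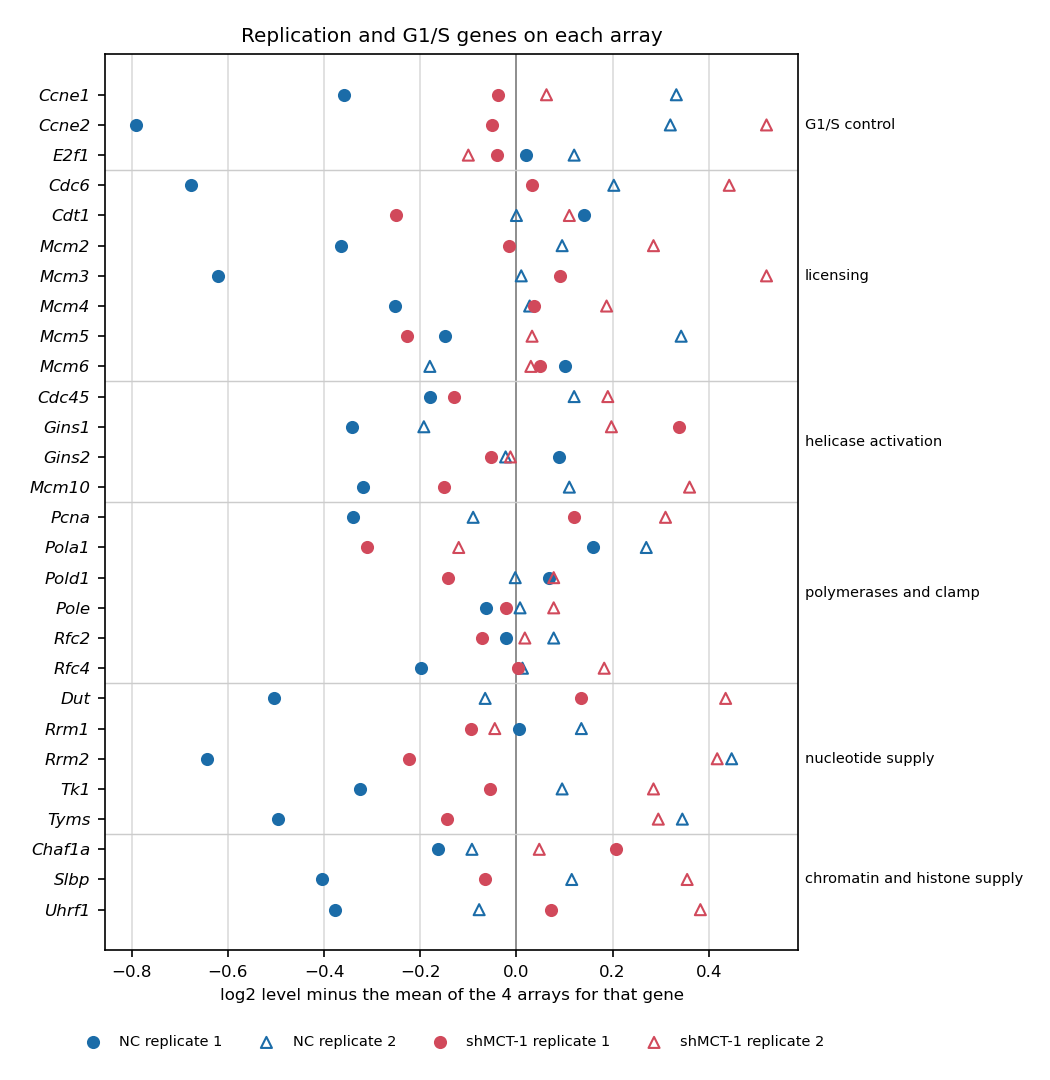
Log2 level of each of the 28 genes on each of the 4 arrays (x axis), minus that gene's mean over the 4 arrays, with genes on the y axis in blocks by role. Blue is NC, red is shMCT-1, filled circles are replicate 1 and open triangles are replicate 2. NC replicate 1 is the lowest point for 19 of 28 genes and shMCT-1 replicate 2 the highest for 15. Among the 8668 named genes at least as bright as the dimmest of the 28, the same counts were 3602 and 3393.

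These counts need the background of other expressed genes, since arrays can differ over their whole bright range. The comparison set was the 8668 named genes whose mean level was at least 6.90, that of E2f1, the dimmest of the 28. In that set, 63.3% of genes had the lower mean in replicate 1, and the median difference was -0.074, so replicate 1 was lower across bright genes in general. Of the 28 genes 89.3% were lower, and 22 lay below the bright-gene median. Arrays of replicates 1 and 2 did not overlap, with replicate 1 lower, for 14 of 28 genes (against 35.3% of bright genes), and with replicate 1 higher for 1 gene (3.57% against 15.1%), which was Mcm6. An unadjusted p under 0.05 with a lower level in replicate 1 was found for 8 genes (28.6%, against 13.7% of bright genes, and 9.05% of all rows in either direction). Leaving out either NC array lowered that count, to 3 for replicate 1 and 2 for replicate 2, and leaving out shMCT-1 replicate 2 gave 3.

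Both groups showed the replicate difference separately. Within NC, 24 of 28 genes were lower on replicate 1 (85.7%, against 60.5% of bright genes), with a median difference of -0.29. Within shMCT-1, whose pair does not include NC replicate 1, it was also 24 of 28 (65.7% of bright genes), with a median of -0.24. The medians of bright genes were -0.068 within NC and -0.083 within shMCT-1. In all, 21 genes were lower on replicate 1 in both pairs (against 51.1% of bright genes). The difference was larger in size within NC for 20 of 28, and the share of bright genes with that order was not determined. Without NC replicate 1, 24 of 28 genes had the lower mean in replicate 1 and the median was -0.18, and without shMCT-1 replicate 2 it was -0.16. The share of bright genes was not determined with an array left out or after the further quantile normalization.

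**Figure D2:**
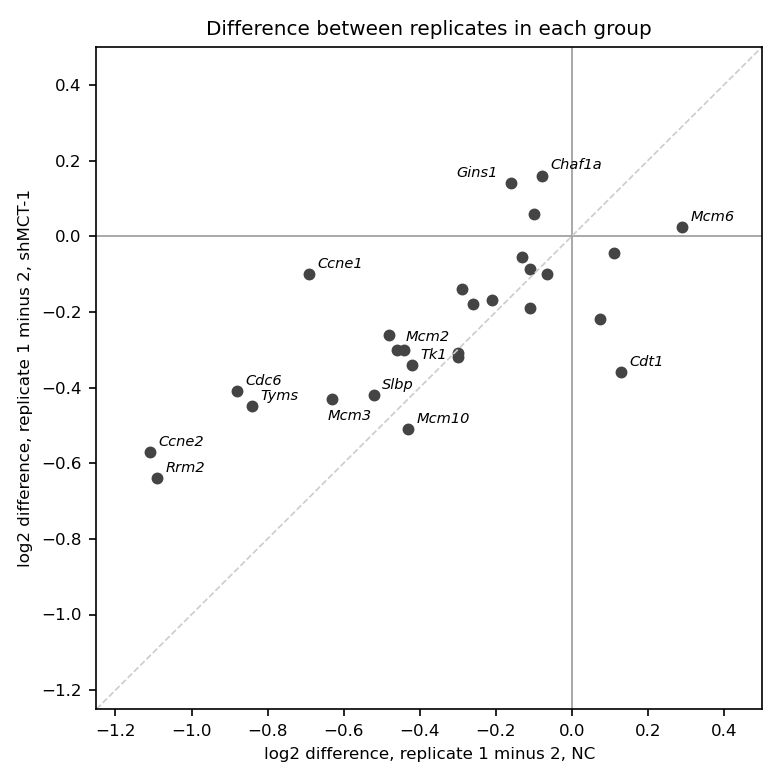
Log2 difference, replicate 1 minus replicate 2, within NC (x axis) and within shMCT-1 (y axis), 1 point per gene, with a dashed line of equal difference. Most points lie in the lower left, with Rrm2 at -1.09 and -0.64 and Ccne2 at -1.11 and -0.57, and Mcm6 is the 1 gene above 0 in both.

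Among the genes that control entry into S phase, the E-type cyclins, which activate Cdk2, were low on NC replicate 1. Ccne2 was at 8.31 and 9.42 on NC replicates 1 and 2 and at 9.05 and 9.62 on shMCT-1 replicates 1 and 2. Both replicate 1 arrays lay below both replicate 2 arrays, and the difference was -0.84 (SE 0.27, 95% interval -1.53 to -0.15), a 1.79-fold lower level in replicate 1. Without NC replicate 1 it was -0.47. Ccne1 was at 6.67 and 7.36 in NC and at 6.99 and 7.09 in shMCT-1, again with separate replicates, although the step was -0.69 in NC and -0.10 in shMCT-1. E2f1, the transcription factor that activates many of the other genes, was nearly level at 6.92, 7.02, 6.86 and 6.80 in the same order, with a replicate difference of -0.022 that turned to 0.044 after a further quantile normalization.

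Between the groups, Ccne2 was 0.47 higher in shMCT-1 (SE 0.42), and without NC replicate 1 the difference was -0.088. Ccne1 was 0.029 higher, and -0.32 without that array. E2f1 was 0.14 lower (SE 0.11), and its 2 shMCT-1 arrays lay below both NC arrays. The interval for E2f1, from -0.42 to 0.14, includes 0.

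The licensing genes hold the loaders Cdc6 and Cdt1 and the helicase subunits Mcm2 to Mcm6. Cdc6, the ATPase that places the helicase at origins, was at 8.78 and 9.66 in NC and at 9.49 and 9.90 in shMCT-1, with a replicate difference of -0.64 (SE 0.26). Its replicates did not overlap, and NC replicate 1 was far below the rest; without that array the difference was -0.29. Cdt1, the other loader, had overlapping replicates, and the values of 9.93 and 9.79 in NC and 9.54 and 9.90 in shMCT-1 gave replicate differences of opposite sign, 0.13 and -0.36.

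Helicase subunits ranged from clearly separated replicates to the reverse order. Mcm5 was at 13.63 and 14.12 in NC and at 13.55 and 13.81 in shMCT-1, so its replicates were apart (difference -0.37, SE 0.14). Mcm2 was at 11.99, 12.45, 12.34 and 12.64 in the order NC replicates 1 and 2 and shMCT-1 replicates 1 and 2, and it also had separate replicates (-0.38, SE 0.16, and -0.21 without NC replicate 1). Mcm4 (12.29, 12.57, 12.58 and 12.73) and Mcm3 (13.24, 13.87, 13.95 and 14.38) were lower on replicate 1 in each pair, while shMCT-1 replicate 1 lay just above NC replicate 2. Mcm6, in contrast, was at 13.34 and 13.06 in NC and at 13.29 and 13.27 in shMCT-1, the only one of the 28 with both replicate 1 arrays on top. The gap in shMCT-1 was 0.023, within the SE of 0.12 of its replicate difference of 0.15.

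With all 4 arrays Mcm3 had the largest difference between groups among the 28, at 0.61 higher in shMCT-1 (SE 0.27, 95% interval -0.095 to 1.31), a 1.52-fold level, with both shMCT-1 arrays above both NC arrays. Without NC replicate 1 it was 0.29, less in size than for several of the 28, the largest being Pola1 (-0.48), Gins1 (0.45) and Mcm5 (-0.44). Without shMCT-1 replicate 2 the difference for Mcm3 was 0.39. Mcm4 was 0.23 higher (SE 0.15) with separate groups too, by the small gap above, and 0.083 higher without NC replicate 1. Cdc6 was 0.47 higher (SE 0.33) and Mcm2 0.28 higher (SE 0.21), both with overlapping arrays, and without NC replicate 1 these values were 0.034 and 0.044. Mcm5 was 0.20 lower (SE 0.21), which turned to 0.045 without NC replicate 2, and Mcm6 was 0.081 higher, which turned to -0.048 after a further quantile normalization.

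The promoters of 23 of the 29 genes were listed in the RefSeq promoter table of GRCm38.p6, as the 250 bases before and 50 bases from each annotated start. They were searched on both strands for the E2F-type letters TTTCCCGC, TTTCGCGC, TTTGCCGC and TTTGGCGC, and 9 of 23 genes held at least 1 (39.1%, against 2.6% of 27025 genes in the table). CCAAT, the letters of the NF-Y box, was found for 14 of 23 genes (60.9%, against 41.1%). The 200 bases before the start are shown for 4 genes with a match there and with different values in these comparisons, with E2F-type letters in capitals. They are 2 genes lower in replicate 1 (Cdc6 and Mcm5), the gene with the reverse order (Mcm6) and a polymerase gene whose shMCT-1 arrays lay below its NC arrays (Pola1). Where 2 matches overlap, as in Mcm5 and Mcm6, the capitals form 1 longer run. These stretches lie at chr11:98907951-98908150 (plus strand), chr8:75109309-75109508 (plus), chr1:128359706-128359905 (minus) and chrX:93632156-93632355 (minus), in the order of the lines.
Cdc6: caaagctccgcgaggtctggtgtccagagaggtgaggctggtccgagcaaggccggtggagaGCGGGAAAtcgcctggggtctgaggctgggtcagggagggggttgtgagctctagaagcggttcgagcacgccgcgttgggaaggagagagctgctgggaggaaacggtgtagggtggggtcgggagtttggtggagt
Mcm5: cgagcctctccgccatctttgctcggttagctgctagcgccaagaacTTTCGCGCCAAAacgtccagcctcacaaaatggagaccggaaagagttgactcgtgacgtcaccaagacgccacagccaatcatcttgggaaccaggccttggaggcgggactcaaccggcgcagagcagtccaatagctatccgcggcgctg
Mcm6: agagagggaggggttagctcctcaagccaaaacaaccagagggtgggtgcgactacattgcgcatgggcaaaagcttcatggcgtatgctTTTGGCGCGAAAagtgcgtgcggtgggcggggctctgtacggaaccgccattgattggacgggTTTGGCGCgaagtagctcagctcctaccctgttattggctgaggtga
Pola1: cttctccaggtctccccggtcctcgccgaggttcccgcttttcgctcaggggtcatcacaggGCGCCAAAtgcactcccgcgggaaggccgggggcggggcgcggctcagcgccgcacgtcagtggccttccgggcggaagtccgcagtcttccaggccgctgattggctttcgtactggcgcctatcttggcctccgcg

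The match starts 138 bases before the annotated start in Cdc6 and in Pola1. In Mcm5 a pair of overlapping matches starts 153 and 149 bases before it, and in Mcm6 a similar pair starts 110 and 106 bases before it with a further match at 47. Mcm3 and Cdt1 had theirs after the start, at 19 and 38 and at 32 bases. The median replicate difference was -0.23 over 8 measured genes with a match and -0.38 over 14 without one, and 7 of 8 and 13 of 14 were lower in replicate 1. Between groups the medians were 0.01 and 0.20, and 4 of 8 and 12 of 14 were higher in shMCT-1. Whether genes with and without a match differ was not tested. A match is a description of the letters in this window and not a mapped binding site.

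Of the genes that turn the loaded helicase on, Mcm10 and Cdc45 had clearly separated replicates. Mcm10, which joins the helicase as it starts to unwind DNA, was at 8.17 and 8.60 in NC and at 8.34 and 8.85 in shMCT-1, a replicate difference of -0.47 (SE 0.14). Cdc45, a helicase partner, was at 10.80 and 11.10 in NC and at 10.85 and 11.17 in shMCT-1, and its steps of -0.30 and -0.32 were nearly equal. The GINS subunits had overlapping replicates. Gins1 (8.52 and 8.67 in NC, 9.20 and 9.06 in shMCT-1) had a replicate difference of -0.0086, of positive sign after a further quantile normalization, and Gins2 stayed between 8.08 and 8.22.

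Gins1 was the member with the lowest unadjusted p between groups. It was 0.53 higher in shMCT-1 (SE 0.12, 95% interval 0.21 to 0.85, adjusted p = 0.882, limma), a 1.45-fold level, with both shMCT-1 arrays above both NC arrays. Its partner Gins2 was 0.07 lower (SE 0.11), and its groups overlapped. Mcm10 was 0.21 higher (SE 0.24) and -0.0078 without NC replicate 1, and Cdc45 was 0.051 higher and -0.099 without that array.

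Polymerase and clamp loader genes had small replicate differences. Pole, the catalytic subunit of the leading-strand polymerase, stayed between 9.92 and 10.06, and Rfc2, a subunit of the clamp loader, between 10.94 and 11.09, with replicate 1 below replicate 2 without overlap (differences of -0.084 and -0.097). Pold1, the catalytic subunit of polymerase delta, ranged from 6.82 to 7.04 with overlapping arrays. Over Pola1, Pole, Pold1, Pcna, Rfc2 and Rfc4 the median replicate difference was -0.12, against -0.38 for nucleotide supply and -0.37 for licensing, and whether these groups of genes differ from each other was not tested.

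Pcna and Pola1 were apart between the groups, in opposite directions. Pcna, the sliding clamp, was at 12.95 and 13.20 in NC and at 13.41 and 13.60 in shMCT-1, 0.43 higher (SE 0.14, 95% interval 0.053 to 0.81). Processed copies of this gene exist (Pcna-ps1 and Pcna-ps2), so its probes may share signal with them. Pola1, the catalytic subunit of the polymerase that makes primers, was at 10.14 and 10.25 in NC and at 9.67 and 9.86 in shMCT-1, 0.43 lower (SE 0.12, 95% interval -0.75 to -0.11). Both had an adjusted p of 0.882 in limma. Rfc4, another clamp loader subunit, was at 11.85 and 12.06 in NC and at 12.05 and 12.23 in shMCT-1, 0.19 higher (SE 0.13), with overlapping groups and separate replicates (-0.19, SE 0.13). Without NC replicate 1 its group difference was 0.085.

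Nucleotide supply held the largest replicate difference of the 28. Rrm2, the regulated subunit of ribonucleotide reductase, was at 13.48 and 14.57 in NC and at 13.90 and 14.54 in shMCT-1, a 1.82-fold lower level in replicate 1 (log2 difference -0.86, SE 0.17, 95% interval -1.30 to -0.43, adjusted p = 0.523, limma). Its partner Rrm1, which is less tied to the cell cycle, was at 14.40, 14.53, 14.30 and 14.35, a difference of -0.092 that turned to 0.0065 after a further quantile normalization. Replicates were apart for Rrm2 and overlapped for Rrm1.

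Enzymes of the thymidine branch were lower in replicate 1 as well. Tyms, thymidylate synthase, was at 9.73 and 10.57 in NC and at 10.08 and 10.52 in shMCT-1 (-0.64, SE 0.15), and a pseudogene, Tyms-ps, may share its signal. Tk1, thymidine kinase, was at 9.89 and 10.31 in NC and at 10.16 and 10.50 in shMCT-1 (-0.38, SE 0.14). For both, the replicate 1 arrays lay below the replicate 2 arrays, and without NC replicate 1 the differences were -0.47 and -0.24. Dut, which removes dUTP, was at 8.19 and 8.63 in NC and at 8.83 and 9.13 in shMCT-1, lower on replicate 1 in each pair but separated by group. It was 0.57 higher in shMCT-1 (SE 0.20, 95% interval 0.045 to 1.10) and 0.35 higher without NC replicate 1. Rrm2 and Tyms, at 0.20 and 0.15 higher, turned to -0.35 and -0.27 without that array. Rrm1 was 0.14 lower (SE 0.11) with both shMCT-1 arrays below NC.

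Genes of chromatin and histone supply completed the list. Slbp, which binds the stem-loop of histone messages, was at 7.38 and 7.90 in NC and at 7.72 and 8.14 in shMCT-1, with separate replicates (-0.47, SE 0.16, and -0.30 without NC replicate 1). Uhrf1, which carries DNA methylation through replication, was at 10.32 and 10.62 in NC and at 10.77 and 11.08 in shMCT-1, with separate groups (0.46 higher, SE 0.17, and 0.30 higher without shMCT-1 replicate 2) and nearly equal steps of -0.30 and -0.31 between replicates. Chaf1a, the large subunit of chromatin assembly factor 1, was at 9.62 and 9.69 in NC and at 9.99 and 9.83 in shMCT-1, 0.25 higher (SE 0.12), with replicate steps of opposite sign.

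Between groups, 7 of 28 genes had both shMCT-1 arrays above both NC arrays (against 19.0% of bright genes) and 3 had both below (against 20.5%). An unadjusted p under 0.05 was found for 5 genes, namely Gins1, Dut, Pcna and Uhrf1 higher and Pola1 lower (17.9%, against 8.84% of bright genes and 5.61% of all rows), and for 2 genes when NC replicate 1 or either shMCT-1 array was left out. A higher mean in shMCT-1 was found for 71.4% of the 28 and for 54.4% of bright genes, whose median difference was 0.025.

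**Figure D3:**
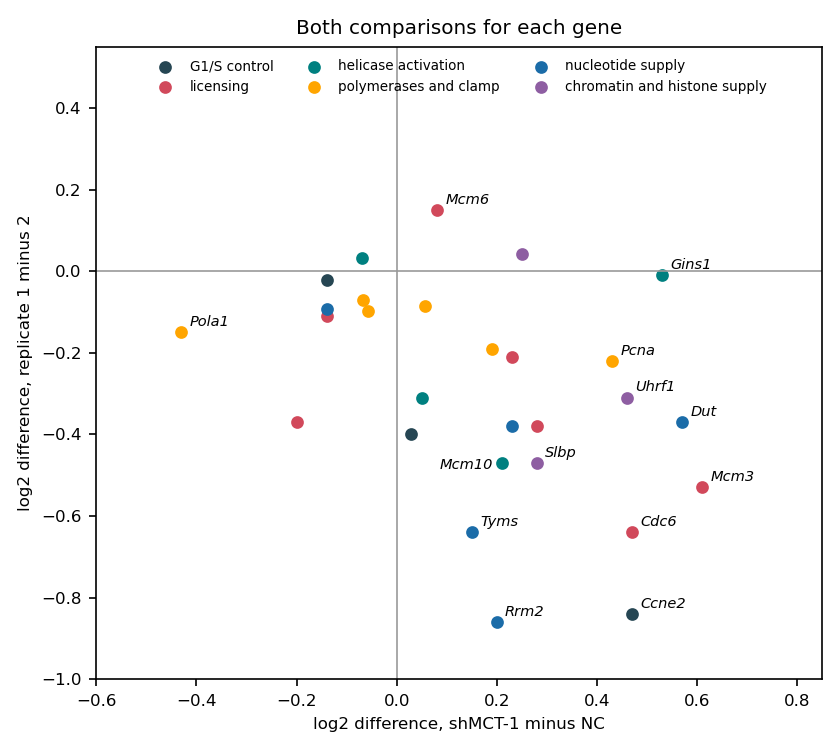
Log2 difference shMCT-1 minus NC (x axis) against replicate 1 minus replicate 2 (y axis) for each of the 28 genes, coloured by role. Rrm2, Ccne2, Cdc6 and Tyms reach the lowest values on the y axis (-0.86 to -0.64), while Gins1 at 0.53 and Pola1 at -0.43 differ between groups with little replicate difference (-0.0086 and -0.15).

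Differences between groups had the sign of the median over their chromosome for some genes and the opposite sign for others. By the chromosome in the row names, which matched RefSeq for all 28, the 5 genes on chromosome 2 were Dut, Gins1, Pcna, Mcm10 and E2f1, and 4 of them had positive differences of 0.21 to 0.57. The median over the 737 bright genes of chromosome 2 was 0.13. Chaf1a and Uhrf1 (0.25 and 0.46) lie on chromosome 17, also with a median of 0.13 over 360 genes. Mcm5, Cdt1 and Gins2 lie on chromosome 8 and were at -0.20, -0.14 and -0.07, and the median of 483 genes there was -0.13. Mcm3 and Mcm6 on chromosome 1 (0.61 and 0.081, median 0.10) also had the sign of their chromosome. So did Cdc6 and Tk1 on chromosome 11 (0.47 and 0.23, median 0.019). The same held for Mcm2 on chromosome 6 (0.28, median 0.069) and Ccne2 on chromosome 4 (0.47, median 0.031). On the remaining chromosomes at least some signs differed: Mcm4, Rfc4 and Cdc45 on chromosome 16 were at 0.23, 0.19 and 0.051 with a median of -0.0077 over 268 genes. Rrm2 on chromosome 12 was at 0.20 with a median of -0.079, and Pola1 on chromosome X at -0.43 with a median of 0.013. On chromosome 5, with a median of -0.012, Slbp, Tyms and Pole were at 0.28, 0.15 and 0.057 and Rfc2 at -0.057. On chromosome 7, with a median of 0.0084, Rrm1 and Pold1 were at -0.14 and -0.068 and Ccne1 at 0.029. In the replicate comparison the medians of chromosomes 2, 17 and 8 were close to one another, at -0.085, -0.071 and -0.082. The part of chromosomes in the group differences of single genes was not tested.

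Other genes of the same processes were also mostly lower in replicate 1. Of 50 further replication genes 48 were measured, 44 had the lower mean in replicate 1, and 29 did so with no overlap, with a median of -0.21. Among bright genes these shares were 63.3% and 35.3%, although some of the 48, such as Mcm9 at a mean of 5.57, were dimmer than that set. The largest differences were those of Orc2, an origin recognition subunit (-0.76, SE 0.24), Dna2, a nuclease of lagging-strand processing (-0.62, SE 0.20), and Prim1, the catalytic primase subunit (-0.54, SE 0.14). At the other end, Gins4, Pold3 and Lig1, the replicative ligase, were at 0.15, 0.075 and 0.049. With an adjusted p under 0.05 there were 0 genes, and 17 had an unadjusted p under 0.05, each of them lower in replicate 1 (13.7% of bright genes).

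Between groups, 37 of these 48 genes were higher in shMCT-1, with a median of 0.059 (54.4% of bright genes, median 0.025). With separate groups, 8 were higher and 5 lower, where 19.0% and 20.5% of bright genes were. Pold4, the small accessory subunit of polymerase delta, had the largest difference, 10.35 and 10.14 in NC against 9.14 and 9.56 in shMCT-1 (-0.90, SE 0.18, 95% interval -1.37 to -0.42, adjusted p = 0.882, limma). Rnaseh2a, a subunit of the enzyme that removes ribonucleotides, was 0.34 lower (SE 0.10) and Gins4 0.33 lower (SE 0.13). Orc2, Mtbp and Tipin were 0.49, 0.47 and 0.45 higher.

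Regulators of G1/S outside the list were lower in replicate 1 in most cases. Of 31 listed and 30 measured, 22 had the lower mean in replicate 1, 18 with no overlap, and 0 passed after adjustment, while 9 had an unadjusted p under 0.05 and were lower. The same shares of bright genes were 63.3% lower, 35.3% with no overlap and 13.7% with that p, so the first count is near the background. That background is limited to bright genes, whereas some of these regulators were dimmer. Among them were Cdkn1c, Cdkn2a and Cdkn2b, at means of 3.44, 3.39 and 3.30. Cdc25a, the phosphatase that activates Cdk2, was at 9.54 and 10.68 in NC and at 10.10 and 10.87 in shMCT-1 (-0.95, SE 0.21), and E2f4, a repressor E2F, at 11.37, 12.14, 11.76 and 12.36 (-0.69, SE 0.17). The genes with the highest differences, replicate 1 minus replicate 2, were Rbl2, a pocket protein that holds E2F genes off in resting cells (7.87 and 7.17 in NC, 7.22 and 6.60 in shMCT-1, 0.66, SE 0.29), Tfdp2 (0.49, SE 0.19) and Rb1 (0.29, SE 0.26). Rbl1, the third pocket protein gene, was at -0.028.

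Cdkn1a, an inhibitor of cyclin-dependent kinases, had the largest replicate difference of all these regulators. It was at 9.79 and 11.03 in NC and at 9.83 and 10.85 in shMCT-1, a 2.18-fold lower level in replicate 1 (log2 difference -1.12, SE 0.11, adjusted p = 0.523, limma). The difference between groups was -0.073 (SE 0.53). Cdkn1a is also a p53 target, and of 10 measured p53 targets 4 were lower and 6 higher in replicate 1. Mdm2 was at -0.11 and Ccng1 at -0.057. Gadd45a and Trp53inp1 were 2.02-fold and 1.99-fold higher in replicate 1 (log2 SE 0.39 and 0.37), opposite to Cdkn1a. Their highest array was NC replicate 1. Gadd45a was at 7.83 and 6.17 in NC and at 6.66 and 6.30 in shMCT-1. Trp53inp1 was at 5.92, 4.33, 4.82 and 4.41 in the same order. Within shMCT-1 their steps were 0.36 and 0.41, against -1.02 for Cdkn1a. Between groups, Ccnd2, a D-type cyclin, was 0.59 higher in shMCT-1, E2f7 0.41 and Skp2 0.40 higher, and Rbl2, Cdkn2d and Rb1 were 0.61, 0.50 and 0.46 lower, each with an adjusted p of 0.882 or more in limma.

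**Figure D4:**
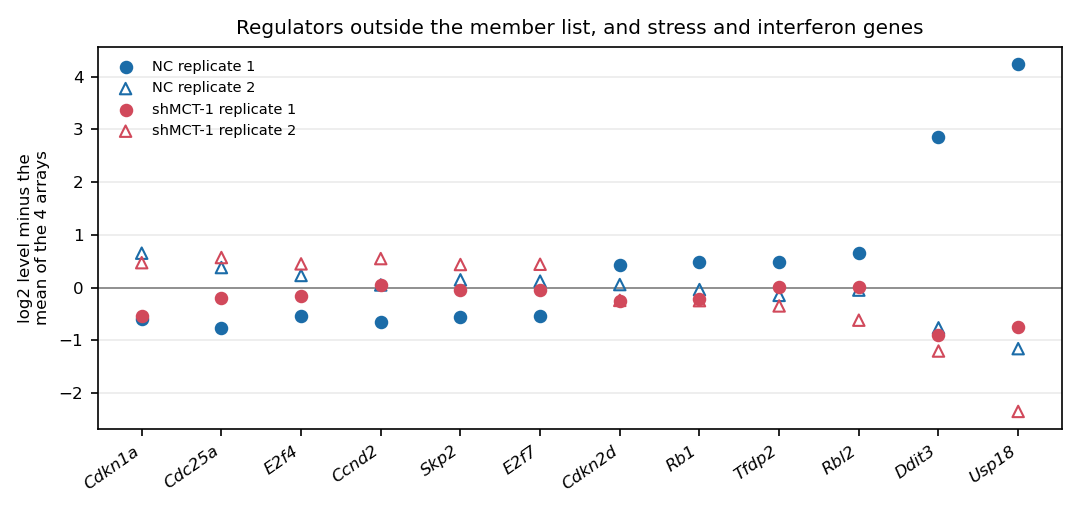
Log2 level minus the gene's mean over the 4 arrays (y axis) for the 10 G1/S regulators with the highest and lowest differences and for the stress gene Ddit3 and the interferon gene Usp18 (x axis), with the same colours and symbols for arrays. Cdkn1a and Cdc25a have both replicate 1 arrays below both replicate 2 arrays, whereas Ddit3 and Usp18 are by far highest on NC replicate 1. Usp18 is also higher on replicate 1 within shMCT-1 (7.33 and 5.72).

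Genes of mitosis were split in the replicate comparison. Of 23 measured G2/M genes, 12 were lower and 11 higher in replicate 1, with a median of -0.12. Among bright genes 63.3% were lower, with a median of -0.074. With no overlap, 9 G2/M genes were lower and 6 higher (35.3% and 15.1% of bright genes). Mki67, the proliferation marker, was at 14.23 and 14.19 in NC and at 14.42 and 14.25 in shMCT-1, and Top2a, the mitotic topoisomerase, was between 14.14 and 14.24. Ccnb2, a mitotic cyclin, was higher on replicate 1 in each pair, at 13.65 and 13.21 in NC and at 13.45 and 13.22 in shMCT-1 (0.33, SE 0.12). Cdk1 went the other way, at 12.51 and 12.78 in NC and at 12.61 and 12.81 in shMCT-1 (-0.23, SE 0.10). Whether the 2 sets of genes differ was not tested, and the counts are given side by side.

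**Figure D5:**
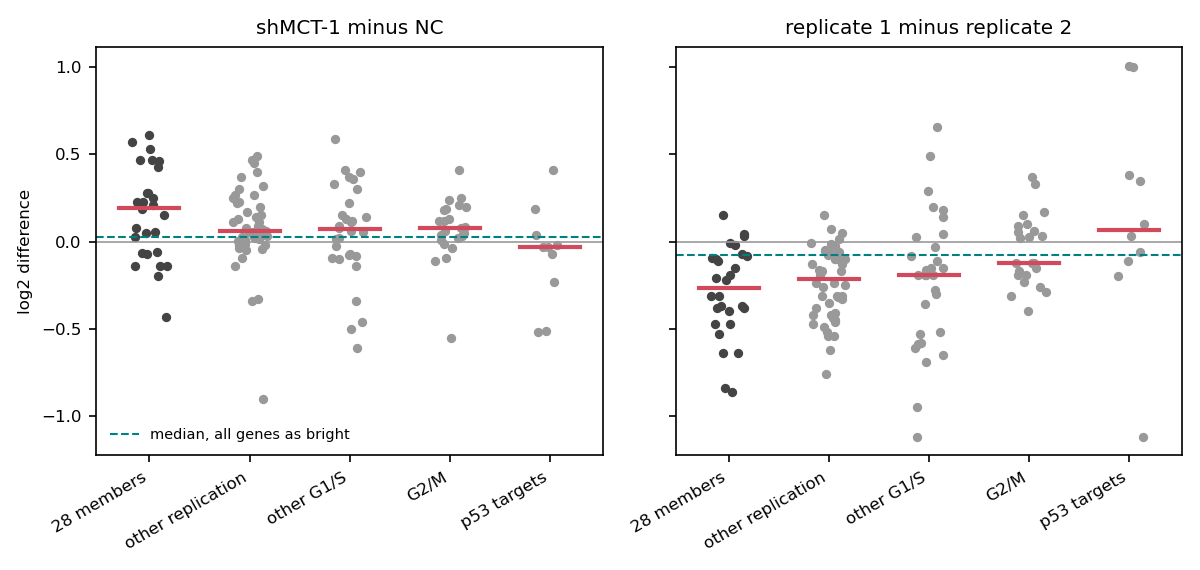
Log2 difference (y axis) of each gene, shMCT-1 minus NC on the left and replicate 1 minus replicate 2 on the right, for the 28 genes and 4 other lists, with red bars at list medians and a dashed line at the median of the 8668 bright genes. In the right panel the medians are -0.26 for the 28 genes, -0.21 and -0.19 for other replication and G1/S genes and -0.12 for G2/M genes; Cdkn1a is counted in both the G1/S and the p53 list.

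NC replicate 1, the array with high interferon and stress genes, was also the lowest of the 4 for 19 of the 28 genes. Its median against the mean of the other 3 arrays was -0.38 over the 28. Among the 8668 bright genes it was the lowest for 3602, with a median of -0.061. For 9 measured interferon genes that median was 3.51 and for 7 stress genes 0.94. This array was the highest for all 9 interferon genes and for 5 of the 7 stress genes. Atf4 and Asns were instead highest on shMCT-1 replicate 2. In the shMCT-1 pair the interferon genes were again higher on replicate 1 in all 9, with a median difference of 0.47, while 4 of 7 stress genes were lower there. The part of interferon and stress signalling in the replication genes' difference was not tested.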

How the data were processed

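Gene expression was measured on 4 arrays of 4T1 cells, 2 per group. The deposited values are log2 expression levels that the authors made at gene level with Affymetrix Expression Console and RMA, per the submitters' processing notes; software versions and the genome build: not given in the sources used here. They ran from 1.29 to 19.9, with array medians of 3.68 to 3.73, and were used unchanged. Columns carry the array names, and 0 were left out. Groups come from the titles and genotypes; the descriptions, which name an shMCT on all 4 arrays, were not used for this. Of 65956 rows, 30604 had 1 gene symbol, 2146 had several and 33206 were not listed in the probe table. Symbols of 827 rows were updated by gene ID (RefSeq, GRCm38.p6), which gave 30142 genes, each represented by its brightest row.

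Differences were fitted on all rows with limma 3.58.1 in R 4.3.3 (lmFit and eBayes), two-sided, with Benjamini-Hochberg adjustment over all rows and a threshold of 0.05, for shMCT-1 minus NC and for replicate 1 minus replicate 2. The fits had 2 residual degrees of freedom. The fit was tested on simulated data with independent normal noise of a common spread in all rows. Unequal spreads and correlated arrays, as in the real data, were not covered by that test. Markers of other cell types are given as levels. The labels call the replicates biological without naming their source, so p-values measure the spread between these samples, and the number of arrays limits the precision. Members and the 12 other gene lists were chosen with earlier results of these data known, and so were the comparisons. All members were named, and of the lists of other replication and G1/S genes the 3 highest and 3 lowest of each comparison, with Mcts1, Mcts2, Denr and up to 4 genes of the interferon, stress, p53 and G2/M lists. Krt14, Rbl1, Gadd45a and Trp53inp1 were added after their values were seen. Alternatives were an intensity trend, robust moderation, only the brighter rows, only singly named rows, quantile normalization, median centring, the replicate block and, for genes with several rows, their mean, besides fits with 1 array left out.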

Additional observations from a re-analysis of the deposited data

How the results depend on the processing

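With 2 arrays a group, no gene among the 28 passed after adjustment in any of the 12 alternatives of either comparison. The files used here hold no detection calls, so signal over background was not assessed. Rows with an adjusted p under 0.05 numbered 0 to 66 for the replicate numbers when 1 array was left out, the 66 without shMCT-1 replicate 1. Genes with an unadjusted p under 0.05 numbered 5 between groups, and 3 with an intensity trend and 2 to 7 with 1 array left out. For the replicate numbers they numbered 8, and 5 with an intensity trend, 4 after quantile normalization and 2 to 11 with 1 array left out (the 2 without NC replicate 2). Genes with separate arrays numbered 15 to 25 between groups and 18 to 24 between replicate numbers with 1 array left out, where 1 array set against 2 separates more easily. The median over the 28 genes kept its sign in all alternatives, from 0.01 to 0.37 between groups and from -0.36 to -0.16 between replicate numbers.

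With the replicate number as a replicate block, 9 genes had an unadjusted p under 0.05 between groups, and 13 between replicate numbers with group as a term. The matching shares of all rows or of bright genes are not given for these or the other alternatives. The counts are therefore not read as a trait of the 28 genes. Deviations of same-numbered arrays correlated at 0.42 over all rows and at 0.78 over genes as bright as the 28. The labels do not say what a number stands for, and there are 2 pairs, so the pairing comes from the data and not from the design.

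Quantile normalization turned the sign of Mcm6 between groups (-0.048) and of Gins1 (0.071), E2f1 (0.044) and Rrm1 (0.0065) between replicate numbers. Leaving out 1 array turned the sign of 10 genes between groups, with ranges of -0.062 to 0.22 for Mcm6, -0.047 to 0.46 for Mcm10, -0.088 to 1.03 for Ccne2, -0.27 to 0.57 for Tyms, -0.32 to 0.38 for Ccne1, -0.18 to 0.04 for Pold1, -0.44 to 0.045 for Mcm5, -0.32 to 0.04 for Cdt1, -0.35 to 0.74 for Rrm2 and -0.11 to 0.21 for Cdc45. It did so for 8 genes between replicate numbers, with ranges of -0.35 to 0.33 for Gins1, -0.45 to 0.015 for Pcna, -0.13 to 0.088 for E2f1, -0.18 to 0.036 for Pold1, -0.31 to 0.08 for Cdt1, -0.041 to 0.10 for Gins2, -0.38 to 0.084 for Pola1 and -0.14 to 0.23 for Chaf1a. The cause was not tested.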
